A study of Caenorhabditis elegans with 2 samples.

Results

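The genes described here encode the small nuclear RNAs of the spliceosome and the spliced leader RNAs of Caenorhabditis elegans. They were taken as every gene of biotype snRNA in Ensembl release 115 for the assembly WBcel235 (ce11), together with every gene whose symbol begins with sls-1. or sls-2., which added 0 further genes. This gave 129 of the 46890 annotated genes on the nuclear chromosomes. Of these, 114 could be placed in an RNA class: 13 U1, 20 U2, 5 U4, 12 U5, 24 U6, 12 SL1, 18 SL2 and 10 SmY genes. The class came from the symbol for 40 genes, from a short word of the RNA for 69 and from at least 80% identity to a classed RNA for 5, and 15 genes remained unclassed.

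The series consists of ChIP-seq region lists for a transcription factor. The animals were whole larvae of strain OP355 at the L2 stage, of mixed sex, with the genotype unc-119(tm4063) III; wgIs355. The transgene wgIs355 targets mdl-1, the antibody label names MDL-1, and chromatin was sheared by sonication. A further label on both samples names KLU-1 as the protein that carries a C-terminal GFP-FLAG tag, so the identity of the precipitated protein rests on the other labels. The labels give 2 biological replicates of a single group, and there is no other condition to compare. The lists carry no read counts, so the depth of each library is not known. Samples of whole animals average over all cell types, and nothing below assigns a region to a tissue.

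U1, U2, U4, U5 and U6 RNAs form the small nuclear ribonucleoproteins that recognise splice sites and assemble into the spliceosome. In C. elegans many messenger RNAs are also trans-spliced: the SL1 RNA donates its leader to the first exon of most of these transcripts, and SL2 RNAs serve mainly the downstream genes of operons, while SmY RNAs are bound by Sm proteins and are linked to trans-splicing. Genes of this kind have short compact promoters with a proximal sequence element bound by the SNAP complex. U6 genes also carry a TATA box and are transcribed by RNA polymerase III, and the other classes are transcribed by RNA polymerase II. MDL-1 is a bHLH-Zip protein of the Mad type, whose family binds the E-box CACGTG with Max-like partners.

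Sequence around the starts of genes with and without a peak is shown first. The highest points of all 11 peaks of the authors' optimal list at these genes lay within 100 bp of the start. Each line gives 75 bases before the gene and the first 25 bases of the RNA on the strand of the gene, in WBcel235, so that the RNA begins at base 76. Capitals mark 4 words of 7 letters that are described further below, where they lie before the RNA. The first is GCGGAAC, the second CGGAACC, which overlaps it by 6 letters, the third AACCCGC and the fourth TATATAA. The first 10 lines are genes with a peak in the authors' optimal list.
sls-2.2, SL2, chrII:5543523-5543622, plus strand: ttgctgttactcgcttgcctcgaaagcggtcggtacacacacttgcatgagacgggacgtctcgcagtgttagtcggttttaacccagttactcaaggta
sls-2.1, SL2, chrII:5844790-5844889, plus strand: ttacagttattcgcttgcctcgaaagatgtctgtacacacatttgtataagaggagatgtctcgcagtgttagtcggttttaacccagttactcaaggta
sls-2.8, SL2, chrIII:12250390-12250489, plus strand: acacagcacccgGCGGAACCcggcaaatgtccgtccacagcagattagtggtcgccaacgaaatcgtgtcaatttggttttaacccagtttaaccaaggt
sup-6, U1, chrII:12944943-12945042, minus strand: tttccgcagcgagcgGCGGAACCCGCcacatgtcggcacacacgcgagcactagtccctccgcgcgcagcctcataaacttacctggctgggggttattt
sup-39, U1, chrII:6968534-6968633, minus strand: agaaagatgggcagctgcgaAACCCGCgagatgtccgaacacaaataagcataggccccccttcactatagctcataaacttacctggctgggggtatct
T11F9.15, U4, chrV:11980043-11980142, plus strand: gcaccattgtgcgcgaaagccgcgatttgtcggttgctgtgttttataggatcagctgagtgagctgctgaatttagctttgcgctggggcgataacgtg
F38E11.11, U5, chrIV:9444567-9444666, plus strand: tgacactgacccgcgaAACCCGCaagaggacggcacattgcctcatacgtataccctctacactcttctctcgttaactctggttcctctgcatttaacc
R07E5.16, U6, chrIII:10989604-10989703, plus strand: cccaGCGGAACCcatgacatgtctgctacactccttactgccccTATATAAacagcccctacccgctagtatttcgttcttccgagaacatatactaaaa
F54D8.7, U6, chrIII:5080874-5080973, minus strand: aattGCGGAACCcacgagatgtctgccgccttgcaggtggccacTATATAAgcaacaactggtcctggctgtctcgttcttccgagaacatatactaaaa
C47F8.9, U2, chrII:13829467-13829566, minus strand: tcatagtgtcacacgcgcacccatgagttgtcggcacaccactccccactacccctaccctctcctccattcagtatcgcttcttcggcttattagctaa
The next lines are genes of the same classes with no region in any list, chosen for a mostly unique upstream flank, and 1 SL1 gene, whose class had no region at all. T14B4.10 and C53D6.16 lack the short RNA word of their class and were placed by identity, so they are less typical copies of U2 and U5.
F40G12.13, U1, chrV:14267468-14267567, plus strand: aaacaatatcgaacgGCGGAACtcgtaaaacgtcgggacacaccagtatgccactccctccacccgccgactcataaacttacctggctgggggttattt
T14B4.10, U2, chrII:6716330-6716429, minus strand: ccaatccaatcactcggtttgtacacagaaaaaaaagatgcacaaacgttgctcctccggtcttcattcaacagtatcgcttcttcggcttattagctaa
K03B8.10, U4, chrV:11391190-11391289, minus strand: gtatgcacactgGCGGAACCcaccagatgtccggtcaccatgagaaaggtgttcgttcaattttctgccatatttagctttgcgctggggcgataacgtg
C53D6.16, U5, chrIV:8999898-8999997, minus strand: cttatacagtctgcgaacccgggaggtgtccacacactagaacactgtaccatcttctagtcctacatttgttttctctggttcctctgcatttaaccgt
R07E5.16, U6, chrIV:4866736-4866835, plus strand: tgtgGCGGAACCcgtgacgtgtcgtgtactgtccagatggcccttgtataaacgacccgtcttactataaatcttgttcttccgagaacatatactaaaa
sls-2.13, SL2, chrIV:5063507-5063606, minus strand: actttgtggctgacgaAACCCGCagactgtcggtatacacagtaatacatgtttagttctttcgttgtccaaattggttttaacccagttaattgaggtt
sls-1.10, SL1, chrV:17118079-17118178, plus strand: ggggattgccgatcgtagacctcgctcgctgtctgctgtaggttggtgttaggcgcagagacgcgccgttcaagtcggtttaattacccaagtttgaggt
The starts of the RNAs show their classes: the SL2 lines share a leader that begins ggttttaaccc, the U1 lines share aaacttacc, which in the mature RNA pairs with the 5′ splice site, and the U6 lines share the same first 25 bases.

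The authors' optimal list held 1076 peaks that, by its label, passed a threshold on reproducibility, whose setting is not stated. Each region carries a signal in the authors' units, whose scale is not stated. A gene was counted when the summit, the highest point of a region, lay inside it or within 200 bp of either end. By this rule 12 of the 129 genes, 9.3% (exact Clopper-Pearson 95% interval 4.9 to 15.7), had an optimal peak, against 1.86% of all 46890 annotated genes. The 12 genes shared 11 peaks, because mir-1831, a microRNA gene that the annotation lists as snRNA, lies inside sup-39. The intervals cover counting error only, and with 1 group no test between conditions was possible. They take every gene as an independent case, which identical copies and genes that share a peak are not.

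These genes are short, with a median length of 109 bp, against 2027 bp for protein-coding genes. Over the gene and 200 bp on either side, the share was 2.44% for protein-coding, 3.1% for tRNA and 9.25% for snoRNA genes. A window fixed on the start has 1 length for every gene and was also used. Whether annotated starts mark promoters equally well in each kind of gene was not tested. From 200 bp before to 100 bp after the start, the same 12 genes (9.3%) had an optimal summit, against 0.898% of all annotated genes and 0.961% (95% interval 0.831 to 1.11) of the 19973 protein-coding genes. The share among the 612 tRNA genes was 2.78% (1.63 to 4.41). Among the 346 snoRNA genes, which encode the guides of ribosomal RNA modification, it was 8.38% (5.68 to 11.8). The interval for the spliceosomal and spliced leader genes overlaps the one for snoRNA genes, so the share was not particular to them.

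Counted over the gene and 200 bp on either side, the contrast with other genes was seen in the strongest regions and not further down the list. Among the 5000 strongest regions of the pooled replicates, 22 of the 129 genes (17.1%) had a summit, against 7.57% of all annotated genes. In the whole pooled list of 30000 peaks and background regions, 37 genes (28.7%) had one, against 31.9% of all annotated genes, a share no higher than the background. These pooled shares were not counted in the window fixed on the start. Longer genes offer more room for a summit, and the part of gene length in these shares was not tested. No region of any list lay at 78 of the 129 genes.

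**Figure D1:**
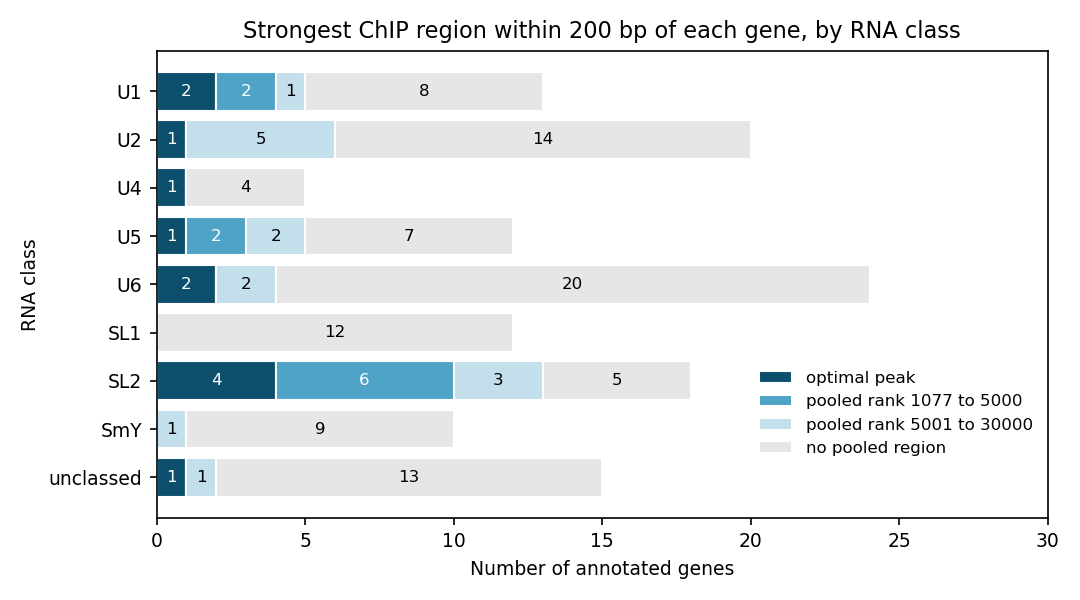
Number of annotated genes in each RNA class (horizontal bars) by the strongest pooled region with its summit in the gene or within 200 bp, with counts in the bars. SL2 had 10 of 18 genes among the 5000 strongest regions, and SL1 had 0 of 12 genes with any region.

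The counts by class ran from no region at any SL1 gene to a pooled region at most SL2 genes. Of the 18 SL2 genes, 4 had an optimal peak, 22.2% (95% interval 6.41 to 47.6), 10 had one of the 5000 strongest regions and 13 had some pooled region. Of the 13 U1 genes 2 had an optimal peak (15.4%, 1.92 to 45.4), of the 24 U6 genes 2 (8.33%, 1.03 to 27), of the 20 U2 genes 1 (5%, 0.127 to 24.9), of the 12 U5 genes 1 (8.33%, 0.211 to 38.5) and of the 5 U4 genes 1 (20%, 0.505 to 71.6). No SL1 gene (0 of 12, upper limit 26.5%) and no SmY gene (0 of 10, upper limit 30.8%) had an optimal peak. The 12 SL1 genes hold 2 distinct RNA sequences and lie in repeated sequence, where reads cannot be placed at 1 position. They are not 12 independent cases, so the SL1 limit cannot be read like that of SmY. The 24 U6 genes hold 9 distinct RNA sequences and the 20 U2 genes 13, so their intervals also count copies as independent. With so few genes in each class the intervals overlap, and differences in the optimal share between classes were not tested.

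The peaks themselves were strong for this list. Their median signal was 144, with a range from 54.1 to 191, against a median of 72.5 over all 1076 optimal peaks, whose range was 48.3 to 1134. Ranked by signal, 9 of the 11 were among the stronger 538 peaks, and the highest ranked was number 78. The deposited −log10 q-value was at its maximum of 3.11 for 9 of the 11, and was 2.72 at F54D8.7 and 2.77 at C47F8.9.

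U1 RNA pairs with the 5′ splice site, and both U1 genes with an optimal peak are known by genetics: mutations in sup-6 and sup-39 were found as suppressors of a splice-site mutation in unc-73. Their RNAs are 97.6% identical. At sup-6 (chrII:12944803-12944967, minus strand) the optimal peak ranked 94 with a signal of 180 and its summit 11 bp inside the gene. In the replicates' own lists the region had a signal of 83.2 and rank 140 in replicate 1 and a signal of 95.7 and rank 70 in replicate 2, with summits 1 bp apart. The sup-6 gene lies within the span of the protein-coding gene F58G1.7, whose start is 3302 bp from the summit, the longest such distance among the 11 peaks.

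At sup-39 (chrII:6968394-6968558, minus strand) the optimal peak ranked 262 with a signal of 110, and its summit lay 18 bp upstream. The replicates gave ranks 307 and 305 and signals of 56.8 and 49.5, the closest pair of ranks among the 11 peaks in relative terms. The summit is 25 bp upstream of mir-1831, and a peak of this width cannot assign the signal to either gene. Below the optimal list, F08H9.11 had a pooled region at rank 2183 (signal 33.1), T08G5.11 at 3200 (28.6) and F08H9.10 at 8120 (21.2), and all 3 summits lay upstream. The other 8 U1 genes had no pooled region.

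U2 RNA pairs with the branch point of the intron. Only 1 of the 20 U2 genes, the copy of C47F8.9 at chrII:13829305-13829491 on the minus strand, had an optimal peak, and it was the weakest of the 11, with rank 893 and a signal of 54.1. Its ranks also differed most between the replicates: rank 640 with a signal of 36.8 in replicate 1, but rank 4861 with a signal of 16.3 in replicate 2. The summit, 6 bp before the start, lay 800 bp from the start of his-42, a histone H3 gene. The other pooled regions at U2 genes were weak, from rank 9718 (signal 20) at F08G2.11 to rank 27528 (13.1) at C05G6.4. Replicate 1 had regions at 6 U2 genes and replicate 2 at 1, so that outside C47F8.9 no U2 gene had a region in both replicates.

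U4 RNA is base-paired with U6 before the spliceosome is activated. The U4 gene with an optimal peak was the copy of T11F9.15 at chrV:11980118-11980261 on the plus strand, where the peak ranked 145 with a signal of 151 and its summit lay 29 bp upstream. Replicate 1 gave rank 109 and a signal of 95, replicate 2 rank 224 and a signal of 58.4, and the summits were 13 bp apart. This was the only peak of the 11 narrower than 340 bp, with a width of 138 bp, and a second pooled region (rank 2133, signal 33.5) had its summit 170 bp after the start, beyond the end of the gene. The summit of the optimal peak is 366 bp from the start of snr-4, which encodes an Sm protein of the same ribonucleoproteins. The other 4 U4 genes had no pooled region, and F10D2.13 had weak regions in the replicates, at ranks 20228 and 26090.

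U5 RNA holds the exon ends together during splicing. The copy of F38E11.11 at chrIV:9444642-9444763 on the plus strand had the class's optimal peak, at rank 372 with a signal of 93.5 and the summit 14 bp upstream. Its ranks were 262 in replicate 1 (signal 62.5) and 462 in replicate 2 (signal 40.5). Within the class, a further pair of U5 genes came closest to the threshold: F32B5.9 on chromosome I had pooled rank 1180 and a signal of 45.2, and F42C5.12 had pooled rank 1664 and a signal of 37.8. Both were weaker in replicate 2, where they ranked 6706 and 10713, than in replicate 1, where they ranked 545 and 1811.

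U6 RNA forms part of the catalytic centre. Its strongest peak was at the copy of R07E5.16 at chrIII:10989679-10989780 on the plus strand, within the span of the dynein heavy chain gene dhc-4, with rank 366, a signal of 94 and ranks of 353 and 274 in replicates 1 and 2. The summit lay 73 bp upstream, the farthest from a start of the 11. The second was at the copy of F54D8.7 at chrIII:5080798-5080898 on the minus strand, with rank 793, a signal of 57.8 and the summit 51 bp upstream. Its ranks of 1003 and 1062 in replicates 1 and 2 were both just inside the strongest 1076, and the summits were 2 bp apart. Weak pooled regions lay upstream of the R07E5.16 copies at chrIII:4426854-4426955 (rank 16154, signal 16.6) and chrIII:4414185-4414286 (rank 21579, signal 14.7), and the other 20 U6 genes had none.

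Among the spliced leader genes only SL2 genes held regions. The strongest of all 11 peaks was at sls-2.2 (chrII:5543598-5543707, plus strand), with rank 78, a signal of 191 and the summit 9 bp inside the gene. Replicate 1 gave a signal of 97.9 and rank 97, and replicate 2 a signal of 100 and rank 63. The next was sls-2.1 (chrII:5844865-5844974, plus strand), with rank 82, a signal of 186 and replicate ranks of 67 and 97. In both genes the ranks stayed among the strongest 100 in each replicate, but the replicate summits lay 124 and 115 bp apart, the widest gaps among the 11 peaks.

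The third SL2 peak, at sls-2.4 (chrI:4172206-4172315, plus strand), ranked 130 with a signal of 157 and its summit 23 bp upstream, with replicate ranks of 103 and 152. The fourth, at sls-2.8 (chrIII:12250465-12250575, plus strand), ranked 159 with a signal of 144, with replicate ranks of 249 and 98. Its summit, 61 bp inside the gene, lay 134 bp from the start of the protein-coding gene Y75B8A.23, the closest coding start to any of the 11 summits. The SL2 genes thus held 4 of the 6 highest-ranked peaks, and the others of those 6 were at sup-6 and T11F9.15.

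Further SL2 genes followed below the threshold: sls-2.3 at pooled rank 1380 (signal 41.4), sls-2.9 at 1467 (40), sls-2.7 at 1740 (36.9), sls-2.16 at 2759 (30.1), sls-2.5 at 2798 (30) and sls-2.14 at 3005 (29.2). The gene sls-2.3 faces sls-2.2 in the convergent orientation, and its signal of 41.4 compares with 191 at sls-2.2. In replicate 2 sls-2.3 ranked 3174, sls-2.9 4397 and sls-2.7 29488, against 1464, 1125 and 939 in replicate 1. Weaker regions lay at sls-2.10, sls-2.17 and sls-2.18, at ranks 5637, 7008 and 8644. Among the genes with a pooled region, sls-2.16 had none in the list of replicate 1, sls-2.5 none in that of replicate 2 and sls-2.18 none in either. The gene sls-2.15 had no pooled region and was in the list of replicate 1 alone. No list had a region at sls-2.6, sls-2.11, sls-2.12 or sls-2.13.

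The SL1 genes, which lie on chromosome V in the repeat that also holds the 5S ribosomal RNA genes, had no region in any of the 4 lists. Of the SmY genes, smy-11 had a pooled region at rank 29011 (signal 12.8) with its summit 192 bp upstream, and smy-8 a region in replicate 2 at rank 12884. Of the unclassed genes, mir-1831 had the sup-39 peak and M163.13, on chromosome X, had a pooled region at rank 5223 (signal 24.5). Chromosome X carried 296 of the 1076 optimal peaks but 3 of the 129 genes, all of them unclassed.

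**Figure D2:**
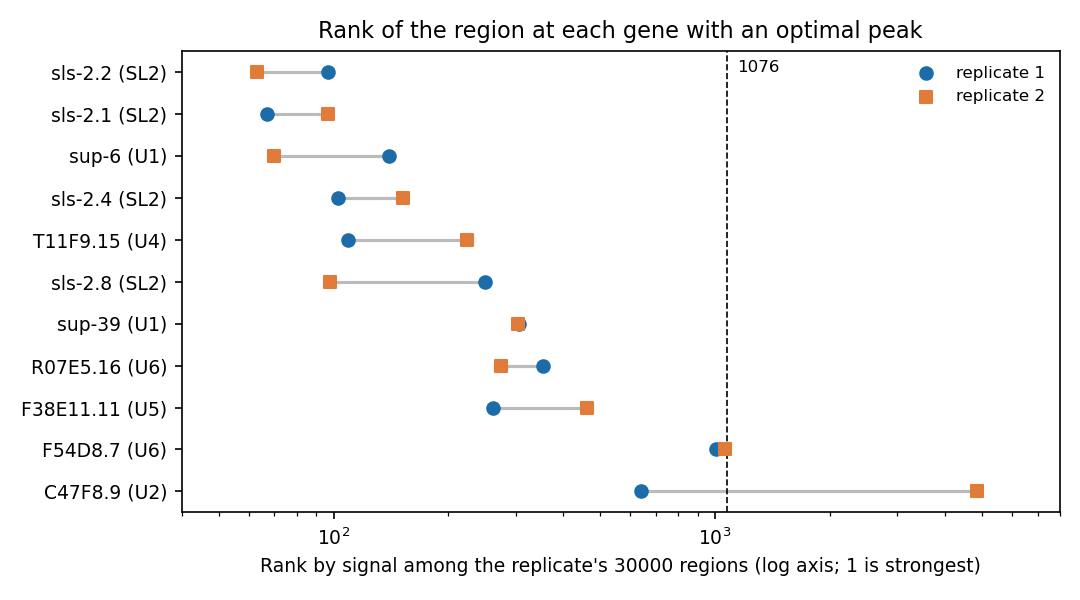
Rank by signal (horizontal log axis, 1 is strongest) of the region at each gene with an optimal peak in the list of replicate 1 (circles) and replicate 2 (squares), with a dashed line at rank 1076. At 10 of the 11 peaks both replicates are left of the line, and C47F8.9 ranks 640 and 4861.

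Both replicates placed nearly the same genes among their strongest regions. Taking the 1076 strongest regions of each replicate's own list, replicate 1 had 14 of the genes and replicate 2 had 11, and the 11 were in both. The genes of replicate 1 alone were C47F8.9, F32B5.9 and sls-2.7. Of all 129 genes, 38 had a region somewhere in the list of replicate 1, 34 in that of replicate 2 and 25 in both. The shares of all annotated genes in the replicate lists were not counted. In the whole pooled list the share was 28.7%, against 31.9% of all annotated genes, so the counts from the full replicate lists do not set these genes apart. The replicate lists were made from the same libraries as the optimal list, so this agreement is not independent of that list.

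The optimal summits lay upstream of the genes or inside them. Of the 11 optimal summits, 7 were upstream, 4 were inside and 0 were downstream, and all 11 were within 100 bp of the start, from 73 bp before it to 61 bp after it, with a median of 14 bp before. The 4 inside were at sls-2.2, sls-2.1, sls-2.8 and sup-6. At sls-2.1 and sls-2.8 they lay 58 and 61 bp into RNAs of 110 and 111 bp, nearer to the end than to the start. With a median gene length of 109 bp, a distance of 100 bp from the start spans nearly all of a typical gene. Among the 22 summits of the 5000 strongest pooled regions at these genes, 13 were upstream, 8 inside and 1 downstream, and 21 were within 100 bp of the start. Among all 37 pooled summits 20 were upstream, 13 inside and 4 downstream. Each of these genes is shorter than the usual region of 340 bp, and in all 917 optimal peaks of that width the summit is the midpoint, so the side of a summit close to the start is not resolved.

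**Figure D3:**
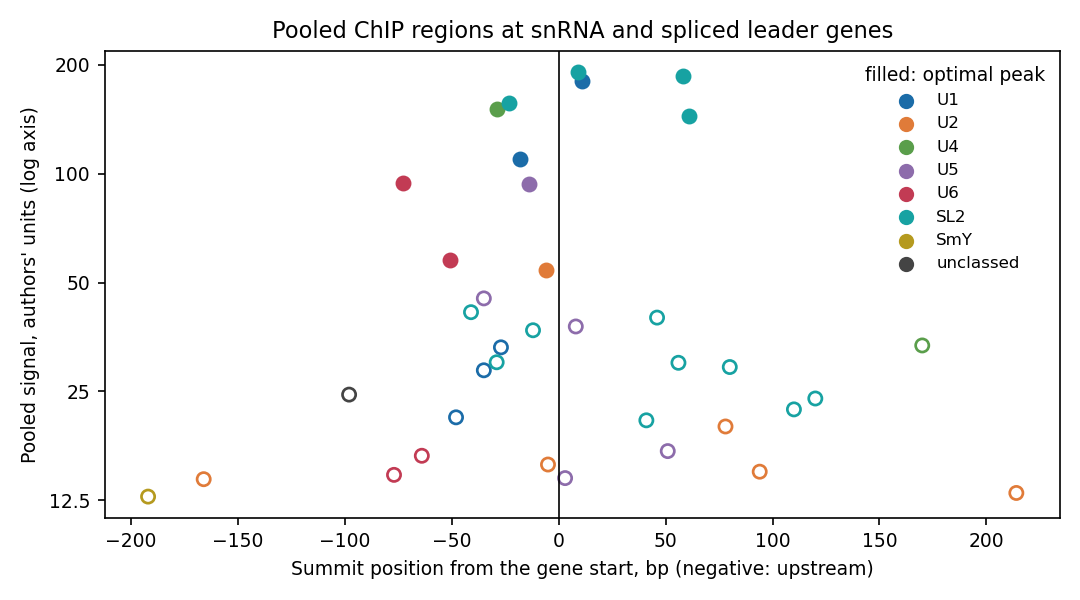
Pooled signal in the authors' units (vertical log axis) against the distance of the summit from the gene start in bp, with upstream as negative, for every pooled region at these genes. Filled points are optimal peaks, which lie from 73 bp before the start to 61 bp after it, and open points are weaker regions, which spread from -192 to 214 bp.

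Each replicate's own list placed its strongest regions at these genes upstream or inside. Of the 13 summits at these genes among the 1076 strongest of replicate 1, 7 were upstream, 6 inside and 0 downstream, and all 13 were within 100 bp of the start. Replicate 2 had 10 such summits, of which 6 were upstream, 4 inside and 0 downstream, and 8 were within 100 bp of the start, with a range from -105 to 87 bp. In the full lists of replicates 1 and 2, 32 of 41 and 21 of 38 summits were within 100 bp of the start.

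The E-box CACGTG, searched on both strands within 50 bp of the summit, was present at 0 of the 11 optimal peaks (95% upper limit 28.5%), against 237 of 1076 (22%) over all optimal peaks. The word GACGCA, frequent at the summits of this list as a whole, was also present at 0 of 11, against 231 of 1076 (21.5%). With 11 peaks, the upper limit of 28.5% lies above both background shares, so a lower share than in the other peaks was not detectable. Among the 26 weaker pooled regions at these genes, 1 held CACGTG, at the C47F8.9 copy at chrII:13951422-13951608 (rank 23291), and 1 held GACGCA, at sls-2.3. At sls-2.16 the pooled summit (rank 2759) had neither word, but CACGTG lay within 50 bp of the replicate 2 summit (rank 1910). The mean GC content within 50 bp of the summit was 50.1% at the 11 peaks and 49.6% over all optimal peaks.

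Many of the genes shared words before their starts, and their distance to the summits was not measured. In the 100 bases upstream of the 114 classed genes the 3 most frequent words of 7 letters, chosen from these sequences, were the word AACCCGC, the word CGGAACC and the word GCGGAAC. They overlap one another, each was found in 32 genes (28.1%) on either strand, and each occurrence was on the strand of the gene. The same search found them in 0.405%, 0.373% and 0.499% of the upstream windows of all annotated genes. AACCCGC began 55 to 71 bases before the start, with a median of 58, as the lines above show for sup-39 and F38E11.11. It was present in 10 of 12 U5, 9 of 18 SL2 and 8 of 13 U1 genes, and in 0 of 20 U2 and 0 of 12 SL1 genes.

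The words were found upstream of genes with and without a peak. AACCCGC was upstream of 3 of the 11 classed genes with an optimal peak (27.3%, 95% interval 6.02 to 61) and of 29 of the 103 without one (28.2%, 19.7 to 37.9). For CGGAACC and for GCGGAAC the counts were 4 of 11 (36.4%, 10.9 to 69.2) and 28 of 103 (27.2%, 18.9 to 36.8). With 11 genes the intervals are wide, and a difference of moderate size was not detectable. Set by any pooled region instead, AACCCGC was upstream of 16 of the 35 genes with one (45.7%, 28.8 to 63.4) and of 16 of the 79 without (20.3%, 12 to 30.8). The same shares were 37.1% and 24.1% for CGGAACC and 34.3% and 25.3% for GCGGAAC. RNA class moves with both the words and the regions, and its part in these shares was not tested. Among the printed lines, sls-2.2 and sls-2.1, which had the strongest peaks, have none of the 3 words, and K03B8.10, which had no region in any list, has the word GCGGAAC at the same place as sls-2.8. A match is a description of the letters and not a binding site.

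TATATAA was looked for because U6 promoters have a TATA box. It began 30 or 31 bases before the start in 15 of the 24 U6 genes (62.5%), against 3.52% of the upstream windows of all annotated genes, and was in 0 of the U1, U4, U5, SL1, SL2 and SmY windows. Both U6 genes with an optimal peak have it, as the lines for R07E5.16 and F54D8.7 show, and so do 13 U6 genes without one. The 2 summits, 73 and 51 bp before the start, lie on the upstream side of this word.

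Many of these genes exist in identical copies, and no family of identical copies held more than 1 optimal peak. In all, 44 of the 129 genes share their whole RNA sequence with at least 1 other, in 9 families. In 5 families, which hold 28 genes, exactly 1 copy had an optimal peak, and in the other 4 none had. These 5 of 44 genes compare with 12 of all 129 (9.3%), a similar share. Most families are small, so at most 1 peak per family does not set identical copies apart from the other genes. The U6 family of R07E5.16 has 14 copies with 1 optimal peak, that of F54D8.7 has 3 with 1, the U2 family of C47F8.9 has 7 with 1, and the U5 pair F38E11.11 and the U4 pair T11F9.15 have 1 each. In the F54D8.7, F38E11.11 and T11F9.15 families every copy has an upstream flank that is unique in the genome, and the copies without an optimal peak had no region in any list.

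Reads from repeated sequence cannot be placed at 1 position, so the share of 36-base words that occur once in the genome was computed for each gene and its flanks. The read length and the treatment of reads with several placements are not stated in the sources used. In the 200 bp upstream flank, 80 genes had at least 90% of their words unique and 49 had fewer. All 12 genes with an optimal peak were among the 80 (15%), with 91.5% at C47F8.9 and 100% at the others, against 0 of the 49. The 49 include all 12 SL1 genes and copies of the U6 family R07E5.16, so they are not 49 independent cases. A region among the 5000 strongest of the pooled list lay at 21 of the 80 (26.2%), against 1 of the 49 (2.04%). Any pooled region lay at 29 of the 80 (36.2%), against 8 of the 49 (16.3%).

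Uniqueness is given by class over the gene with both flanks, and for the upstream flank alone. The median share of unique words over the gene and both flanks was 0% in SL1, where the highest gene reached 22.5%, 59.2% in U2, 75.7% in U1, 76.7% in U6, 80.2% in U4, 87.5% in U5, 90.6% in SL2 and 99.9% in SmY. In the upstream flank alone the median was 0% in SL1, 88.2% in U6, 89.4% in U2, 96.4% in U1 and 100% in U4, U5, SL2 and SmY. SL1, lowest on both measures, had no region, while SmY, highest over the gene and both flanks, had no optimal peak. Of the 80 genes with a mostly unique upstream flank, 42 had no region in any list. Within the RNA itself no word was unique at C47F8.9, T11F9.15, F38E11.11 and both U6 genes, and all 5 of these summits lay upstream of the gene. At C47F8.9 and F38E11.11 they were 6 and 14 bp before the start, where the side is not resolved. The summits at sls-2.4 and sup-39, where 78.7% and 33.1% of the RNA's words were unique, also lay upstream, and the other 4 lay inside. The part of mappability in the differences between classes and in the side of the summits was not tested.

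**Figure D4:**
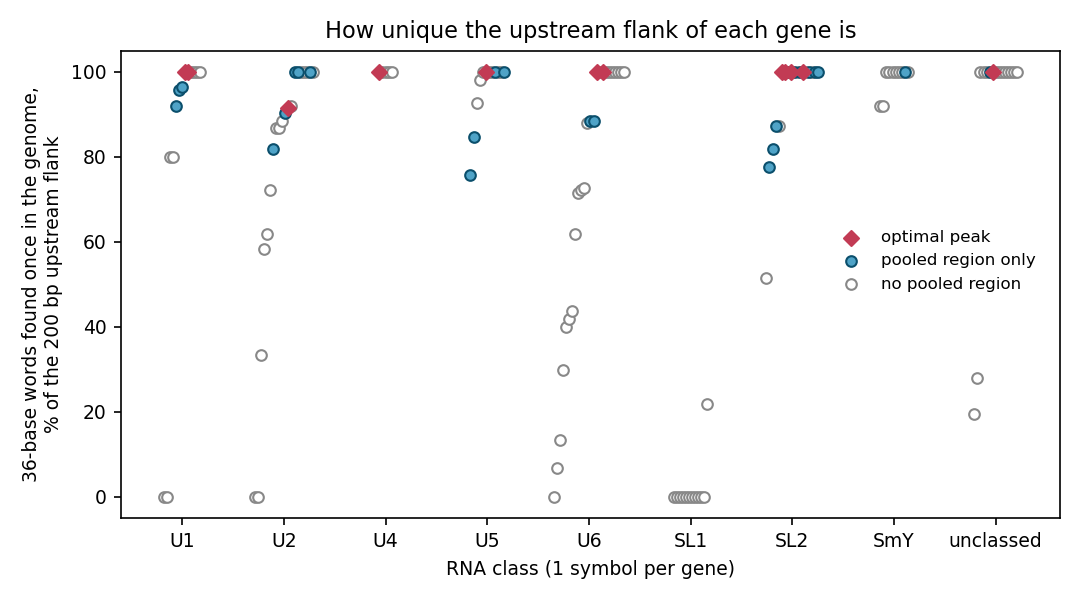
Share of 36-base words in the 200 bp upstream flank that occur once in the genome (vertical axis, %), with 1 symbol per gene in each RNA class. Genes with an optimal peak (diamonds) have values from 91.5% to 100%, SL1 genes have at most 21.8%, and many genes without a pooled region (open circles) also stand at 100%.

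Other promoters were close to some of the peaks. The nearest start of a protein-coding transcript was within 1000 bp of the summit at 8 of the 11 peaks, against 584 of all 1076, and it was 134 bp away at sls-2.8 and 366 bp away at T11F9.15. At sls-2.2, sup-6 and R07E5.16 it was 1257, 3302 and 1733 bp away.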

How the data were processed

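The members and lists were chosen with earlier results of these data known. The ce11 region lists deposited by the authors were used: an optimal list, a pooled list and 1 list per replicate. Text files that the authors deposited beside them name alignments and 1 further file as their input. Aligner, caller and reproducibility threshold are likewise not given in the sources used here. A region has the authors' signal, on an unstated scale, which was used only to rank and describe regions within a list. Each also has the authors' deposited −log10 q-value and a summit offset, which the authors deposited as a distance in bp from the region start. The ce10 lists were not used.

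Gene models came from Ensembl release 115 and sequence from the RefSeq genome of the same assembly, whose chromosome lengths hold every region. A summit counted for a gene when it lay inside or within 200 bp. Genes in a class without a class name in the symbol were placed by short RNA words or identity. Named genes were all those with an optimal summit, the 3 strongest per class in the pooled list and the 5 strongest below the optimal list, and any others were named after their values were seen. The window and side rules were tested on simulated summits. Windows of 100 and 500 bp, each replicate alone, the stronger 538 peaks, region overlap and other list depths were alternatives. The start window was added after the data were seen. Python 3.11.15, Biopython 1.88, SciPy 1.17.1 and matplotlib 3.10.9 were used. Intervals are exact (Clopper-Pearson) at 95%. Depth is unknown, so precision is given only as these intervals over genes or peaks.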

Additional observations from a re-analysis of the deposited data

How the results depend on the processing

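The count of genes with an optimal peak, 12, was 12 with a window of 100 bp, 13 with one of 500 bp, 13 when any overlap of the region counted, and 10 with the stronger 538 peaks. From 1 replicate alone it was 11 to 14, and the count of summits, 11, was 10 to 13. The median signal, 144, was 127 with a window of 500 bp and 151 in the stronger 538. With 1 replicate alone it was 62.5 to 64.8, in the signal of that replicate's own list. Genes with 1 of the 5000 strongest pooled regions, 22, numbered 16 to 23 from 1 replicate alone, 17 with the 2000 strongest regions and 28 with the 10000 strongest. Genes with any pooled region, 37, numbered 34 to 38 from 1 replicate. Upstream summits, 7, numbered 6 to 7 from 1 replicate, and CACGTG and GACGCA were at 0 of the optimal summits under each alternative run. Of 44 alternatives for these counts and values, 40 stayed within 1.5 times the reported count, or, for the median, within the standard deviation of the 2 replicate medians. The other 4 were all of the median signal, at 127, 151, 62.5 and 64.8. That standard deviation comes from the replicates' own lists and not from the pooled signal. Single peaks dropped out in 3 of 60 alternatives: C47F8.9 without replicate 1, where it ranked 4861, and C47F8.9 and F54D8.7 in the stronger 538. No paired analysis was possible because there is 1 group. The small number of genes gives wide intervals, and depth is unknown.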
